A study of Mus musculus with 6 samples.

Results

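The miR-424, miR-503, miR-450 and miR-542 cluster is a group of miRNA hairpins that lie next to one another on the X chromosome. Its members were taken by name, as every arm listed for miR-424, miR-503, miR-450a, miR-450b and miR-542, which gave 10 of the 1983 rows of the miRNA table. Of these 10 rows, 3 were above the lowest reportable level in at least 3 of 6 libraries and could be compared between genotypes, 1 was above it in 2 libraries, and 6 were never above it. The libraries were small RNA libraries from epididymal white adipose tissue (WAT) of male C57BL6/J mice, 3 wild type (Wt) and 3 angiotensinogen transgenic (Agt Tg), with 1 library per mouse. The Agt Tg mice overexpressed Agt, the precursor of angiotensin II, in adipose tissue from the aP2 promoter, which is also active in macrophages, and the Wt mice carried no transgene. The sample labels give a chow diet for both genotypes, whereas the methods of the study describe a low fat diet. Age is not given in the labels. Small RNA libraries do not measure the Agt mRNA, so the genotype labels were not checked against the transgene.

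A miRNA is cut from a hairpin in a longer transcript, and either of its arms (5p or 3p) can be loaded into an Argonaute protein, where the bases near its 5′ end, the seed, pair with target mRNAs. Hairpins of a cluster can be cut from shared primary transcripts, but each mature miRNA has its own processing and turnover, so that neighbours need not be equally abundant. miR-424 (whose mouse counterpart is miR-322) and miR-503 are known for slowing the cell cycle through cyclins and Cdc25a and for their part in muscle differentiation, and miR-424 is also induced by low oxygen in endothelial cells. miR-542-3p is known for targeting the survival gene Birc5, and miR-450a-5p has been linked to adipocyte differentiation.

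In the mouse genome (GRCm38.p6, RefSeq) the 6 hairpin genes of these members lie on the minus strand of chromosome X within 6353 bases (chrX:53047997-53054349), between Hprt and Plac1. In the direction of transcription Mir322 (chrX:53054255-53054349) comes first and Mir503 (chrX:53053984-53054054) follows after 200 bases. Mir542 (chrX:53049403-53049487), Mir450-2 (chrX:53048299-53048367), Mir450-1 (chrX:53048154-53048244) and Mir450b (chrX:53047997-53048078) lie at the other end. The 7th miRNA gene in the span, Mir351, has no row of that number in the table and is not a member. RefSeq places Mir322, Mir503 and Mir351 within the long non-coding RNA gene C430049B03Rik (chrX:53053112-53057190), while Mir542 and the 3 Mir450 hairpins overlap no other gene in that annotation. The GENCODE M21 model of C430049B03Rik starts later (chrX:53055046-53057190), and in GENCODE 0 other genes overlap any of the hairpins.

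The mature sequences of the 5p arms are shown because the 3 rows that could be compared were all 5p arms. They are the mouse sequences of RefSeq (GRCm38.p6), written 5′ to 3′ with the seed, bases 2 to 8, in capitals.
miR-322-5p: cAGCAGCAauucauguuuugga
miR-503-5p: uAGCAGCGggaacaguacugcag
miR-450a-5p: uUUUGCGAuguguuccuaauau
miR-450b-5p: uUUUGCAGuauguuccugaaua
miR-542-5p: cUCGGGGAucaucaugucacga
The seeds of miR-322-5p and miR-503-5p were equal at 6 of 7 bases. miR-450a-5p and miR-450b-5p were equal at 15 of 22 bases and at 5 of the 7 seed bases, and the seed of miR-542-5p was shared with none of the other members. The sequence of miR-16-5p, the most abundant of 5 listed miRNAs with the seed of miR-322-5p, is given for comparison.
miR-16-5p: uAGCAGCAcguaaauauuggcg

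The 3p arms are shown because the listed 3p rows were at or near the lowest reportable level. The seeds are again in capitals.
miR-322-3p: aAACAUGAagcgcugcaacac
miR-503-3p: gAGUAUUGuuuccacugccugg
miR-450a-1-3p: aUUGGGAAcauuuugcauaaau
miR-450a-2-3p: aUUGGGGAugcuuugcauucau
miR-450b-3p: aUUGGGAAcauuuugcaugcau
miR-542-3p: uGUGACAGauugauaacugaaa
The 3p arm of Mir450-1 and that of Mir450b shared a seed and were equal at 20 of 22 bases.

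The hairpins of the 3 detected rows are given with the 5p arm in capitals.
Mir322: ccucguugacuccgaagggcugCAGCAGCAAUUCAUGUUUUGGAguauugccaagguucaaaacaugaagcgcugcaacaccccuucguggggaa
Mir450-1: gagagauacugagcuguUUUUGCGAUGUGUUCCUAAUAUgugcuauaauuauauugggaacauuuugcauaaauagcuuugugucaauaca
Mir450-2: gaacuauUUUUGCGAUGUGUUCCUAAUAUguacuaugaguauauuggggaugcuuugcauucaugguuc
Mir542: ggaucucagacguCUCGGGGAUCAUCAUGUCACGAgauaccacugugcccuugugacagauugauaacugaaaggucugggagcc
Mir450-1 and Mir450-2 carry the same 22 bases of miR-450a-5p. The single miR-450a-5p row therefore pools both hairpins, and their separate outputs cannot be told apart. All rows carry human names and stand for the mouse reads that matched the sequence of that name. A comparison of human with mouse sequences was not made here, and how many mismatches the matching allowed is not given in the sources used here.

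Values in the table are each library's reads per 10000000 on a log2 scale, and the authors raised values under 10 to 10 (3.32 on the log2 scale), which is the floor. Library totals ran from 6387766 to 10562634 reads, and the floor stood for 6.39 to 10.6 reads. The column names of the 6 libraries differ only in an ID number, and what their shared part stands for is not stated. No 2 libraries were as alike as sampling noise allows. Wt replicate 2 stood apart in miRNAs of epididymis, testis and epithelium, whose list summed to 13877 reads per 1000000 of the library total (RPM) there and to 104 to 173 in the other 5 libraries. That library was also the highest in the fibroblast list (4341 RPM, against 1458 to 2876 in the others) and the muscle list (170 RPM, against 49.6 to 65.1), and the lowest in the erythroid list (5099 RPM, against 9320 to 20813). The adipocyte list summed to 6516 to 9848 RPM, with 9 of its 13 rows tested and with miR-193b-3p and miR-455-3p at the floor in every library. Rows with the same value in every library were summed once, which applied to 1 pair each in the fibroblast list (miR-199a-3p and miR-199b-3p) and the adipocyte list (miR-365a-3p and miR-365b-3p). In the muscle list miR-206, miR-133b, miR-208a and miR-208b were at the floor in all libraries. Its high sum in Wt replicate 2 came from miR-133a, at 10.72 on the log2 scale there and 8.92 to 9.35 in the others. The other tested muscle row, miR-499a-5p, was at the floor in Wt replicate 2 and at 4.12 and 3.61 in Wt replicates 1 and 3. Agt Tg replicate 3 was the highest in the endothelial list (11827 RPM, against 7078 to 8727) and the vascular smooth muscle list (58589 RPM, against 38224 to 45631). Of the smooth muscle rows, miR-143-3p and miR-145-3p were highest in that library. By contrast, miR-143-5p was highest in Wt replicate 1 (8.04 on the log2 scale, against 7.82 in Agt Tg replicate 3). The miR-145-5p row was highest in Agt Tg replicate 2 (14.50, against 13.82 in Agt Tg replicate 3). At the deposited scaling the leukocyte list differed between genotypes without overlap, at 4064 to 4207 RPM in Wt and 2828 to 3860 in Agt Tg mice. By row, 1 of its 4 tested rows did not overlap, where 17.6% of all miRNAs tested did not. Its miR-142-5p row was highest in Agt Tg replicate 1 (14.15 on the log2 scale). Each of the 3 tested members had a value in Wt replicate 2 that lay inside the range of the other libraries. In bulk tissue, fewer cells of a type and less RNA per cell cannot be told apart.

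Among the members, miR-450a-5p was the most abundant in all 6 libraries, followed by miR-424-5p and then miR-542-5p. Their ranks by mean level were 151, 220 and 239 among the 329 miRNAs tested. The mean levels over the libraries were 31.0 RPM for miR-450a-5p, 7.44 for miR-424-5p and 4.69 for miR-542-5p. The order was the same in every library, since miR-450a-5p was 3.60-fold to 5.88-fold above miR-424-5p, and miR-424-5p was 1.26-fold to 2.69-fold above miR-542-5p. Levels of different miRNAs also depend on how well each sequence enters a library, which was not measured. The order is that of the human-named rows. It holds for the mouse miRNAs only if their reads matched those rows in full, which was not tested.

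**Figure D1:**
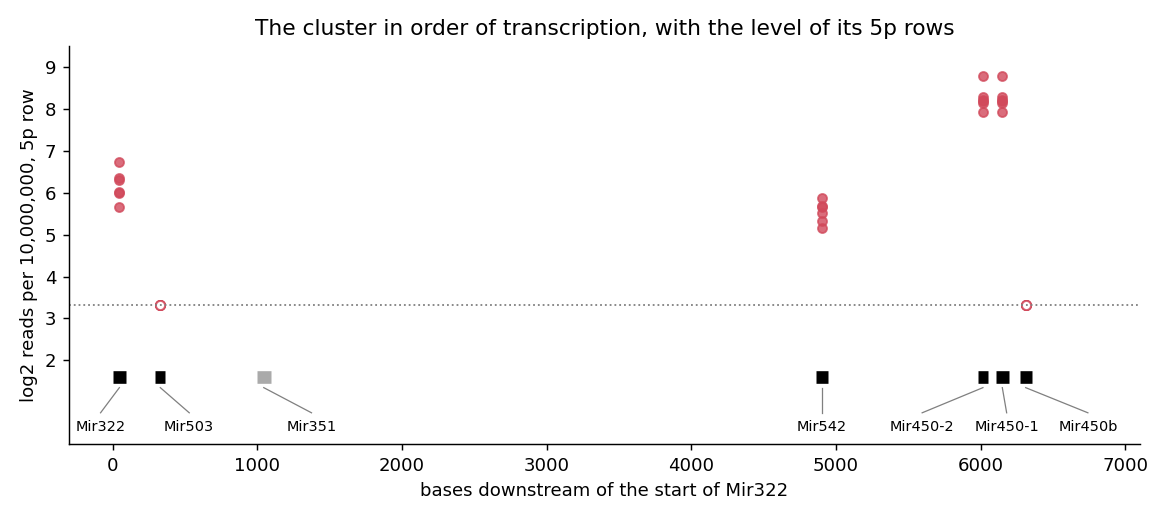
Log2 reads per 10000000 of the 5p row of each hairpin (vertical axis, 1 point per library, open points at the floor, dotted line) against the distance in bases from the start of Mir322 in the direction of transcription (horizontal axis), with hairpins as boxes and Mir351, which has no row, in grey. The 2 columns of points over Mir450-2 and Mir450-1 are the same pooled miR-450a-5p row, which was the highest, while the 5p rows of Mir503 and Mir450b were at the floor in every library. The rows carry human names, and how fully reads of the mouse hairpins matched them was not tested.

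miR-450a-5p was read 232, 228 and 240 times in Wt replicates 1, 2 and 3 and 306, 180 and 462 times in Agt Tg replicates 1, 2 and 3. Its log2 values were 8.28, 8.18 and 7.93 in Wt and 8.21, 8.14 and 8.77 in Agt Tg mice. The groups overlapped, with 2 of the Agt Tg libraries inside the Wt range and Agt Tg replicate 3 above all others. That library held 43.7 RPM (95% exact binomial interval 39.8 to 47.9), and the intervals of the other 5 libraries ended at or below 35.3. Such intervals cover counting error only, since reads are not independent molecules. The group means were 8.13 ± 0.18 in Wt and 8.37 ± 0.35 in Agt Tg mice (SD, n = 3). The difference between Agt Tg and Wt mice was 0.24 on the log2 scale (standard error 0.28, 95% interval −0.42 to 0.90) and was not significant (limma adjusted p = 0.710). It was 0.04 without Agt Tg replicate 3. That library also had the highest endothelial and smooth muscle sums, whose part in the value was not tested. Of the smooth muscle rows, miR-143-5p and miR-145-5p were not highest there.

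miR-424-5p, the row of the cell cycle regulator that stands for miR-322-5p in the mouse, was read 61, 51 and 63 times in Wt and 52, 50 and 113 times in Agt Tg mice. Its log2 values were 6.35, 6.02 and 6.0 in Wt and 5.65, 6.29 and 6.74 in Agt Tg mice. Agt Tg mice had both the lowest and the highest library, so that the Wt values lay within the Agt Tg range. The lowest, Agt Tg replicate 1, held 5.02 RPM (95% exact binomial interval 3.75 to 6.58) and the highest, Agt Tg replicate 3, held 10.7 (8.82 to 12.9), and these intervals did not meet. The means were 6.13 ± 0.19 in Wt and 6.23 ± 0.55 in Agt Tg mice (SD, n = 3), a log2 difference of 0.10 (standard error 0.36, 95% interval −0.74 to 0.94, limma adjusted p = 0.893). Without Agt Tg replicate 3 its sign changed, to −0.16.

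miR-542-5p was read 44, 40 and 50 times in Wt and 37, 29 and 42 times in Agt Tg mice. Its log2 values were 5.88, 5.67 and 5.67 in Wt and 5.16, 5.50 and 5.31 in Agt Tg mice. All 3 Agt Tg libraries were below all 3 Wt libraries. The means were 5.74 ± 0.12 in Wt and 5.33 ± 0.17 in Agt Tg mice (SD, n = 3). The log2 difference was −0.42 (standard error 0.27, 95% interval −1.06 to 0.23), a fold change of 0.750 with an interval of 0.481 to 1.17, and limma did not separate the genotypes (adjusted p = 0.584). An exact two-sided permutation test gave p = 0.1, the smallest that 3 mice against 3 allow. The separation of the groups depended on the scaling. With TMM scaling Agt Tg replicate 2 was at 5.64 and Wt replicate 3 at 5.63, and with each library scaled to miR-191-5p the groups overlapped as well. At the deposited scaling the leukocyte list was also lower in all 3 Agt Tg libraries. Its sums in Wt replicate 1 (4064 RPM) and Agt Tg replicate 1 (3860 RPM) change order with their TMM factors of 1.10 and 1.03. Of its 8 rows 4 were tested, all 4 below 0 (median log2 difference −0.59) and 0 at the threshold, and both arms of miR-155 were at the floor. The part of the leukocyte list in the level of miR-542-5p was not tested.

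**Figure D2:**
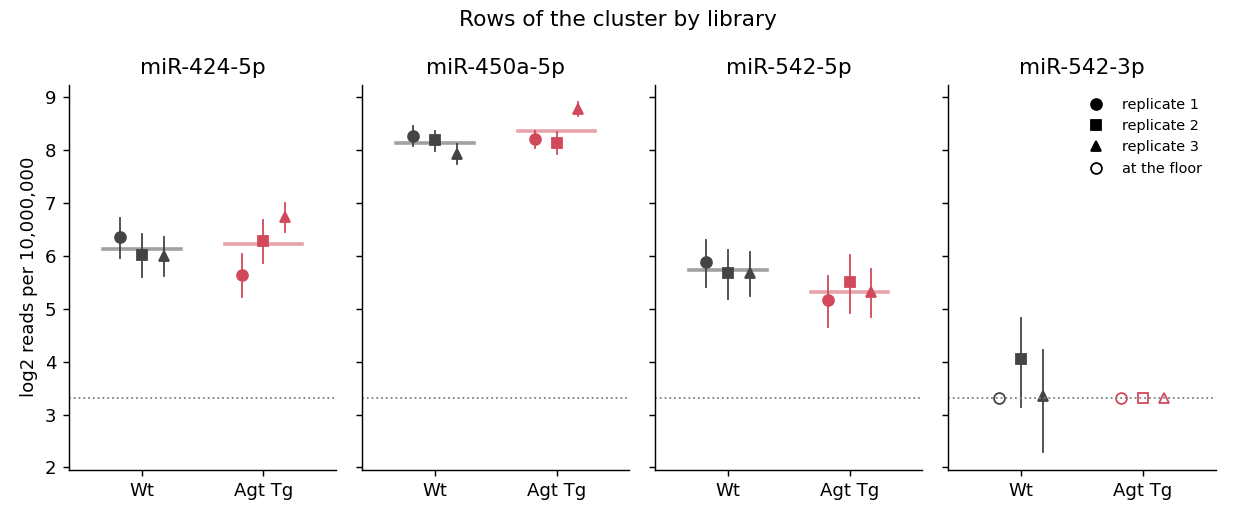
Log2 reads per 10000000 (vertical axis) of the 4 cluster rows above the floor in any library, in Wt and Agt Tg mice, with the replicate given by the symbol, exact 95% counting intervals as vertical lines, group means as horizontal lines and the floor dotted. The Agt Tg replicate 3 triangle is the highest point for miR-450a-5p (8.77) and miR-424-5p (6.74) but not for miR-542-5p (5.31), and miR-542-3p was above the floor in Wt replicates 2 and 3 only.

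Between genotypes, 0 of the 3 tested members passed the threshold of an unadjusted p of at most 0.05 and a fold change of at least 2, where 16 of the 329 miRNAs tested (4.86%) did. At an adjusted p under 0.05 limma called 0 members and 0 of 329 miRNAs (0%), with 30 miRNAs but 0 members at an unadjusted p under 0.05. limma-voom also called 0 of 329 at that adjusted level, with 32 at an unadjusted p under 0.05. The groups did not overlap in 1 of the 3 members, against 58 of 329 miRNAs (17.6%), of which 35 (10.6%) were lower in Agt Tg mice. With TMM scaling these counts were 0 of 3 and 46 of 329. The median log2 difference of all miRNAs tested was −0.19, and −0.06 with TMM scaling. Relative to that −0.19, the differences were 0.43 for miR-450a-5p, 0.29 for miR-424-5p and −0.23 for miR-542-5p.

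**Figure D3:**
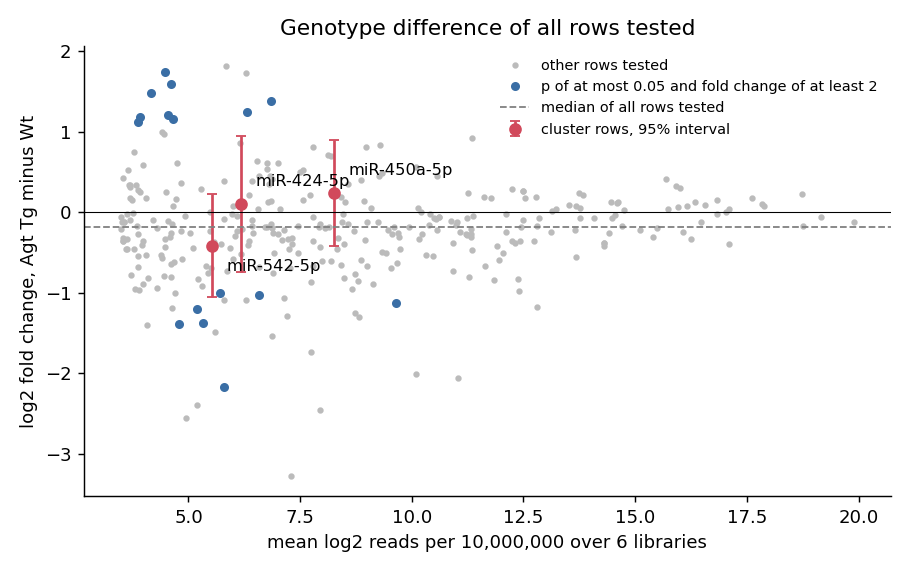
Log2 fold change, Agt Tg minus Wt (vertical axis), against the mean log2 reads per 10000000 over 6 libraries (horizontal axis) for the 329 miRNAs tested, with the 3 cluster rows in red with 95% intervals, the 16 miRNAs at the threshold in blue and the median of −0.19 dashed. The intervals of all 3 cluster rows include 0, at 0.24 for miR-450a-5p, 0.10 for miR-424-5p and −0.42 for miR-542-5p.

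A ratio of 2 members within a library does not depend on how the libraries are scaled. These ratios were chosen after the values were seen and are given without a test. The log2 ratio of miR-450a-5p to miR-542-5p was 2.40, 2.51 and 2.26 in Wt and 3.05, 2.63 and 3.46 in Agt Tg mice, with means of 2.39 ± 0.12 and 3.05 ± 0.41 (SD, n = 3). All 3 Agt Tg libraries lay above all 3 Wt libraries, and the difference of the means was 0.66, or 0.72 without Wt replicate 2. The highest value was that of Agt Tg replicate 3 (3.46), and the difference without that library was not calculated. The ratio of miR-424-5p to miR-542-5p was 0.47, 0.35 and 0.33 in Wt and 0.49, 0.79 and 1.43 in Agt Tg mice, with means of 0.39 ± 0.08 and 0.90 ± 0.48. It did not overlap either, but Agt Tg replicate 1 was only just above Wt replicate 1. Agt Tg replicate 3 was again the highest, and the ratios rest on 29 to 50 reads of miR-542-5p a library. The ratio of miR-450a-5p to miR-424-5p was 1.93, 2.16 and 1.93 in Wt and 2.56, 1.85 and 2.03 in Agt Tg mice, and these groups overlapped. Both ratios without overlap share miR-542-5p, the member already lower without overlap at the deposited scaling, so they are not separate observations. How many pairs of all miRNAs tested do not overlap was not counted, and 17.6% of single miRNAs did not.

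**Figure D4:**
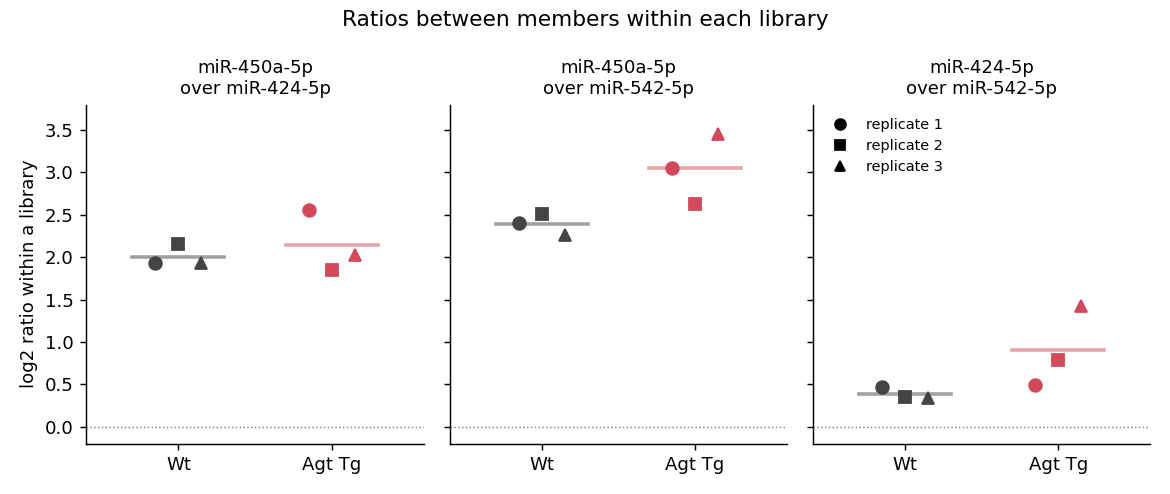
Log2 ratio of each pair of cluster rows within a library (vertical axis) in Wt and Agt Tg mice, with the replicate given by the symbol and group means as horizontal lines. Both ratios over miR-542-5p, which share that row, were higher in all 3 Agt Tg libraries (means 3.05 against 2.39, and 0.90 against 0.39). The ratio of miR-450a-5p to miR-424-5p overlapped between genotypes.

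The member rows that were not compared had low values. miR-542-3p was above the floor only in Wt replicate 2, with 13 reads (4.05 on the log2 scale), and in Wt replicate 3, with 10 reads (3.35), and was at the floor in Wt replicate 1 and in all 3 Agt Tg libraries. This row falls just outside the rule of 3 libraries. miR-424-3p, miR-503-5p, miR-503-3p, miR-450a-3p, miR-450b-5p and miR-450b-3p were at the floor in all 6 libraries. Of these, miR-424-3p and miR-450a-3p are not names of mouse mature miRNAs. A shared name does not show that the human and mouse sequences are equal. For all of these rows, whether a mouse arm could match its human-named row at any depth was not tested, so a row at the floor need not mean a mouse arm with few reads. The 3 tested rows were each above the floor in all 6 libraries.

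All 3 tested members were 5p arms, out of 5 listed 5p arms, and 0 of the 5 listed 3p arms were tested. Among all rows, 147 of 556 5p rows and 108 of 597 3p rows were tested. The 5p arm of miR-542 was 3.08-fold above the 3p arm in Wt replicate 2 and 5.0-fold above it in Wt replicate 3. In the other libraries, where the 3p arm was at the floor, it was at least 3.57-fold to 5.88-fold higher. The 5p arm was at least 24.4-fold to 43.7-fold higher than the 3p arm for miR-450a and at least 5.02-fold to 10.7-fold higher for miR-424, computed against the floor in each library. These are bounds on the human-named 3p rows, and they bound the mouse arms miR-450a-1-3p, miR-450a-2-3p and miR-322-3p only if reads of those arms match these rows, which was not tested. No hairpin had both arms above the floor in every library, so arm ratios were not tested between genotypes.

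Rows differed in how often they were tested by whether their human name is also a mouse name. Of the 359 rows whose name is also that of a mouse mature miRNA in RefSeq, 187 (52.1%) were tested, against 8.74% of the 1624 other rows. Among the members, 7 rows had such a name and 2 of them, miR-450a-5p and miR-542-5p, were tested. The 3rd tested member, miR-424-5p, has a mouse counterpart under another number.

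The summed level of the members, with rows at the floor taken as 0, was 45.0, 42.4 and 37.0 RPM in Wt and 38.1, 40.5 and 58.4 in Agt Tg mice. The means were 41.5 ± 4.12 in Wt and 45.7 ± 11.1 in Agt Tg mice (SD, n = 3), and the groups overlapped. The log2 difference was 0.14, and −0.08 without Agt Tg replicate 3, the library with the highest sum. miR-450a-5p made up 66.1% to 77.5% of the sum, miR-424-5p 13.2% to 19.3% and miR-542-5p 6.81% to 13.8%.

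Across the 6 libraries miR-450a-5p and miR-424-5p had a Pearson correlation of 0.72 (exact permutation p = 0.111, adjusted over 3 pairs p = 0.333) and a Spearman correlation of 0.60 (exact permutation p = 0.242, adjusted p = 0.725). Leaving out the 2 libraries farthest from the median of miR-450a-5p gave r = 0.11, so that the relation rested on those libraries. The correlation of miR-450a-5p with miR-542-5p was −0.37 (exact permutation p = 0.518, adjusted p = 0.749; Spearman −0.14, exact p = 0.803, adjusted p = 0.803). That of miR-424-5p with miR-542-5p was 0.17 (exact permutation p = 0.749, adjusted p = 0.749; Spearman 0.26, exact p = 0.658, adjusted p = 0.803). With the 2 farthest libraries left out these became 0.45 and 0.21.

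The rows outside the cluster whose profile over the 6 libraries was most like the mean of the 3 members were miR-3065-5p (r = 0.88), miR-126-3p (0.81), miR-130a-3p (0.80), miR-30a-5p (0.77) and miR-32-5p (0.75). They are the 5 highest of all tested rows and are a description of 6 libraries that share their scaling. Without Wt replicate 2, miR-126-3p, 1 of the 2 rows of the endothelial list, gave 0.98, and the other rows gave 0.78 to 0.88. The other row of the endothelial list, miR-126-5p, was not among the 5. miR-3065-5p was above the floor in only 4 libraries. The log2 differences of these 5 rows between genotypes ran from −0.17 for miR-3065-5p to 0.12 for miR-126-3p. The part of endothelial cells in the level of the members was not tested.

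Targets of miR-322-5p are shared with other miRNAs of the same seed, which include miR-15a-5p, miR-15b-5p, miR-16-5p, miR-195-5p and miR-497-5p, a family known for restraining the cell cycle. These 5 rows were all tested, and 0 passed the threshold. Their log2 differences were −0.24, −0.53, −0.22, 0.18 and −0.38 in that order, with a median of −0.24 against −0.19 for all miRNAs tested. Of the 5, 4 were below 0, and miR-497-5p was the only one of the 5 whose groups did not overlap, where 67.5% of all miRNAs tested were below 0 and 17.6% did not overlap. miR-16-5p was 282-fold to 801-fold above miR-424-5p. With miR-424-5p, the 6 rows summed to 4035 to 5776 RPM. The share of miR-424-5p in that sum was 0.141%, 0.125% and 0.144% in Wt and 0.0990%, 0.194% and 0.253% in Agt Tg mice, so that Agt Tg mice again held the lowest and the highest value. The fold and the share are those of the human-named row. They hold for mouse miR-322-5p only if its reads matched that row in full, which was not tested.

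**Figure D5:**
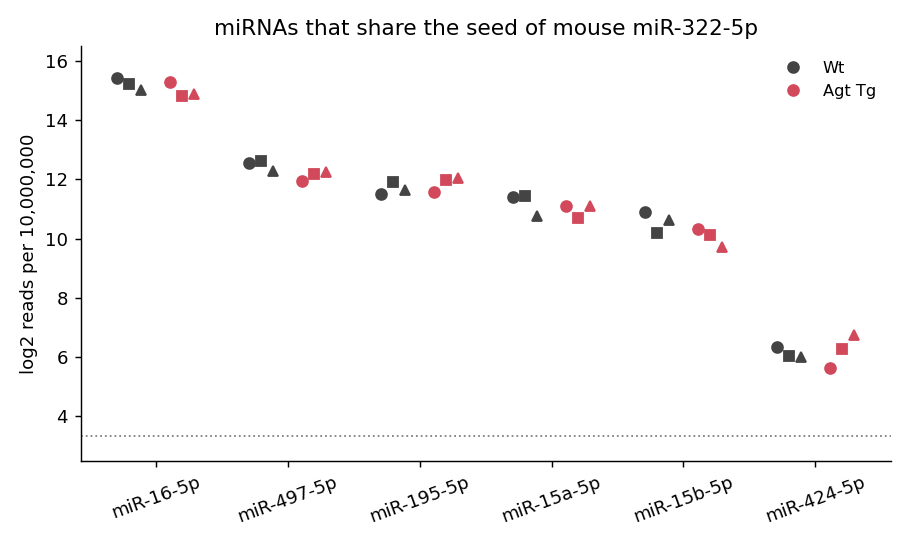
Log2 reads per 10000000 (vertical axis) of the miR-15 and miR-16 family rows and miR-424-5p, ordered by mean level, for Wt (grey) and Agt Tg (red) replicates 1 (circles), 2 (squares) and 3 (triangles), with the floor dotted. miR-424-5p was the lowest of the 6 rows in every library, and miR-16-5p the highest.

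Other miRNAs encoded on the X chromosome were taken from a fixed list of 62 rows, of which 20 were tested. Of these, 1 passed the threshold (4.86% of all miRNAs tested did), miR-767-3p, which was lower in Agt Tg mice by a log2 difference of −1.02. The groups did not overlap in 3, all lower in Agt Tg mice (miR-532-3p, miR-652-3p and miR-767-3p), where 10.6% of all miRNAs tested were lower without overlap. Their median log2 difference was −0.46, with 16 below 0 and 4 above, from −1.08 to 0.34, against a median of −0.19 for all miRNAs, of which 67.5% were below 0. Of the 3 cluster members, 2 were above 0 and 1 below.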

How the data were processed

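Small RNA libraries from WAT of 3 Wt and 3 Agt Tg mice were analysed, with groups from the sample labels. The authors mapped reads to miRBase precursors, kept those on mature miRNAs and deposited log2 values (mm10 per the labels). The log2 scale, per 10000000 reads with a floor of 10, was worked out from the values: 1924 of 1924 above the floor were whole reads within 0.02. Gene expression arrays and miR-690 were not analysed here.

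The 329 rows with values over the floor in 3 or more libraries were fitted with limma 3.58.1 in R 4.3.3 (moderated statistics, variance trend, genotype only, Benjamini-Hochberg adjustment). Self-tests used simulated data. TMM factors were computed from the recovered reads by the published formula (30% of log2 ratios and 5% of mean levels trimmed at each end), without a count model, and exact tests with Python 3.11.15. Where nothing states that mice were handled separately, p-values measure the spread between these libraries. Named rows were all arms of the cluster, the 5 rows most alike in profile, the shared-seed family, X-linked rows and marker lists. Any other row named was chosen after its values were seen. The members and lists were chosen with earlier results of these data known. Alternatives were TMM and miR-191-5p scaling, a pseudocount of 1, limma-voom, no variance trend, other filters, no fold threshold, the replicate number as a block and leaving out each library.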

Additional observations from a re-analysis of the deposited data

How the results depend on the processing

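The count of members at the threshold was 0 in 15 of 15 alternatives. The count over the table, 16, became 3 with a mean of at least 10 RPM, 30 with no fold threshold and 33 without Agt Tg replicate 1. miR-424-5p changed sign without Agt Tg replicate 3 (−0.16) and ran from −0.16 to 0.39. miR-450a-5p ran from 0.04 to 0.38 and miR-542-5p from −0.51 to −0.28, and both kept their direction. The filter at 10 RPM gave no value for miR-424-5p and miR-542-5p. The log2 difference of the summed level ran from −0.08 to 0.26 with each library left out and was 0.28 with TMM scaling, and the order of the members did not change with any library left out. With the replicate number as a replicate block the log2 differences were 0.10 for miR-424-5p, 0.24 for miR-450a-5p and −0.42 for miR-542-5p, and 0 members were called. Same-numbered libraries deviated with correlations of 0.22, −0.18 and −0.21, against −0.30 to 0.28 for the other pairs. These correlations cannot show whether same-numbered mice were handled together. The arm ratio alternatives were not run, since no hairpin had both arms above the floor in every library. Reads of 29 to 462 for each member and library, and 3 mice a group, limit the differences that could be detected.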
